A study of Homo sapiens with 24 samples.

Results

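Cohesin, condensin I and topoisomerase II, the protein machinery that holds and shapes chromosomes, were followed here through 10 genes at 24 time points of a human cell cycle experiment. The 10 genes were chosen as a named list by their complex. No measured value entered the rule, but earlier results of these data were known when these genes were chosen. Their symbols were matched to the Ensembl identifiers of the expression table. All 10 were among the 12285 genes of that table. They were SMC1A (ENSG00000072501), SMC3 (ENSG00000108055), RAD21 (ENSG00000164754) and STAG2 (ENSG00000101972) of cohesin, SMC2 (ENSG00000136824), SMC4 (ENSG00000113810), NCAPD2 (ENSG00000010292), NCAPG (ENSG00000109805) and NCAPH (ENSG00000121152) of condensin I, and TOP2A (ENSG00000131747). The cells were K562, an established human leukaemia line that grows in suspension and has erythroid features, kept in RPMI with 10% bovine calf serum and antibiotics. Centrifugal elutriation, which sorts cells by size, gave a synchronous population, and total RNA was sequenced every 2 h from 0 h to 46 h. No drug, knockdown or other treatment was named for any library. Each time point was 1 library with no replicate, so the spread used below is that between time points and contains both the biology and the error of single libraries. The study that made the data examined time points at which many transcripts depart from their neighbours (STRIPEs) and named 16 h and 18 h as such, with 32 h as a milder case. Tests below therefore used the 22 libraries without 16 h and 18 h, and values of the members with all 24 libraries are given beside them.

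Cohesin is a ring whose core is a pair of SMC ATPases, SMC1A and SMC3, closed by the kleisin RAD21 and bound by a STAG subunit. It holds sister chromatids together from S phase until separase cuts RAD21 at anaphase, and in interphase it extrudes chromatin loops. Condensin I is built in the same way, from SMC2 and SMC4, the kleisin NCAPH and the HEAT-repeat subunits NCAPD2 and NCAPG, and it compacts chromosomes once the nuclear envelope has broken down. TOP2A passes one DNA duplex through another, untangles sister chromatids and is the target of several anticancer drugs. Its transcript and protein are known to accumulate towards G2 and mitosis, whereas cohesin core subunits are present through the whole cycle. Many genes of the late cell cycle carry a CHR element (cell cycle genes homology region) and CCAAT boxes in their promoters, which are bound by the DREAM complex and by NF-Y.

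Promoter windows of the members were read from RefSeq (GRCh38.p14) by gene symbol, each from 250 bases before to 50 bases after an annotated start. The expression values were made on GRCh37, so these windows carry no expression coordinate. The table held 14 windows for 9 of the 10 members, with RAD21 not among them. The letters TTTGAA or TTCGAA (CHR) were found on either strand in 6 of the 14 windows, belonging to 6 members, against 16.4% of all 35116 windows. The letters CCAAT were found on either strand in 5 of the 14 windows, belonging to 4 members, against 34.6% of all windows. Both were found in 2 windows, those of NCAPD2 and TOP2A, against 6.38% of all windows. The E2F letters TTTCCCGC, TTTGGCGC, TTTCGCGC and TTTGCCGC were found in 2 of the 14 windows, 1 each of SMC1A and STAG2, against 3.31% of all windows. A match only says that the letters are there. The windows shown are 3, those of the 2 members whose level differed between the days below (TOP2A and NCAPG) and of NCAPD2, which shares both sets of letters with TOP2A. The 250 bases before the start are printed 5′ to 3′ on the strand of the gene, with CHR letters (TTTGAA, or TTCAAA on the other strand) and CCAAT letters (CCAAT, or ATTGG on the other strand) in capitals.
TOP2A, chr17:40417897-40418146, minus strand: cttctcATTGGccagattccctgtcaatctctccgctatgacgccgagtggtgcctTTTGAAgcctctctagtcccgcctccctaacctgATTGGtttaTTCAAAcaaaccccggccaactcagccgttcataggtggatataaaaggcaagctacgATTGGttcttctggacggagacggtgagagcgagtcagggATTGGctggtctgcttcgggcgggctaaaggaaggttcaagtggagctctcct
NCAPD2, chr12:6493852-6494101, plus strand: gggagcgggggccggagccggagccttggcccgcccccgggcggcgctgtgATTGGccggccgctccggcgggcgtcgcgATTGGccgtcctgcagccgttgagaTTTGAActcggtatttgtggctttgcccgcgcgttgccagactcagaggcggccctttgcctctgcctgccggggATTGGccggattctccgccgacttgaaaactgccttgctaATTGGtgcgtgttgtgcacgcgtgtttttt
NCAPG, chr4:17810729-17810978, plus strand: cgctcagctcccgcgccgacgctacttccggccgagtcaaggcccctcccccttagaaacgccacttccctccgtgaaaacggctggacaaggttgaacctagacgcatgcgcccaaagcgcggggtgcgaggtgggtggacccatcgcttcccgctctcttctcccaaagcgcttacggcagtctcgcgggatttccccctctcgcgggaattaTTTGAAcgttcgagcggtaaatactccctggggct
Counted from the start, the TOP2A window held CCAAT letters at -244, -160, -93 and -53 and CHR letters at -194 and -151. The NCAPD2 window held CCAAT letters at -199, -170, -70 and -30 and CHR letters at -145. The NCAPG window held CHR letters at -35 and no CCAAT letters.

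Values are FPKM, fragment counts scaled to transcript length and library size, so levels can be set beside each other between genes. Read depth is unknown. Summed FPKM lay between 456791 and 520382 in the 22 libraries and was 566247 at 16 h and 591309 at 18 h. Of the erythroid markers all 9 were in the table, with summed levels of 3120 to 4932 FPKM in the 22 libraries and 2488 and 2333 FPKM at 16 h and 18 h. Of the fibroblast and macrophage markers only COL1A2 (1 of 5) and LYZ (1 of 5) were in the table, at 1.70 to 3.94 and 10.7 to 28.2 FPKM. In bulk RNA, fewer cells at a cycle stage and less RNA per cell cannot be told apart.

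SMC4 was the most abundant of the 10 transcripts and its partner SMC2 the least. SMC4, the larger of the condensin ATPases, had a median of 145 FPKM over the 22 libraries, from 122 at 4 h to 228 at 32 h. SMC2 had a median of 27.0 FPKM, from 23.4 at 44 h to 34.7 at 6 h. The ratio of SMC4 to SMC2 had a median of 5.58 and ran from 3.83 at 8 h to 8.26 at 32 h, although the proteins form a dimer. TOP2A stood second, with a median of 106 FPKM, from 47.8 at 2 h to 132 at 36 h. Next came NCAPG (67.3 FPKM, 47.5 to 77.9), RAD21 (64.0 FPKM, 47.5 to 92.4) and SMC1A (62.5 FPKM, 52.2 to 84.0), which took different orders from library to library. NCAPG was above RAD21 in 11 of 22 libraries, and RAD21 above SMC1A in 13 of 22. STAG2, the cohesin subunit that contacts chromatin and CTCF, followed with 52.4 FPKM (49.1 to 63.9). NCAPD2 (40.3 FPKM, 24.8 to 47.9) and NCAPH (39.2 FPKM, 31.0 to 46.8) came next, NCAPD2 being higher in 14 of 22 libraries, and then SMC3 (32.4 FPKM, 28.3 to 45.0). Of the 9 neighbouring pairs in this order, only STAG2 and NCAPD2 had ranges that did not overlap. SMC4 was nevertheless above TOP2A, and SMC3 above SMC2, in every one of the 22 libraries. No member was at 0 in any library.

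The cohesin subunits were closer to each other than the condensin ATPases. SMC1A to SMC3 had a median ratio of 1.97, from 1.61 at 0 h to 2.25 at 22 h. RAD21 to SMC3 had a median ratio of 2.11 but ran from 1.06 at 6 h to 2.63 at 0 h. STAG2 exceeded its paralogue STAG1 at a median ratio of 9.41, from 4.75 at 10 h to 13.9 at 46 h. TOP2A crossed its paralogue TOP2B, the topoisomerase II that is also used outside the cycle, with a ratio of 0.522 at 2 h, 1.52 at 20 h and a median of 1.28.

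**Figure D1:**
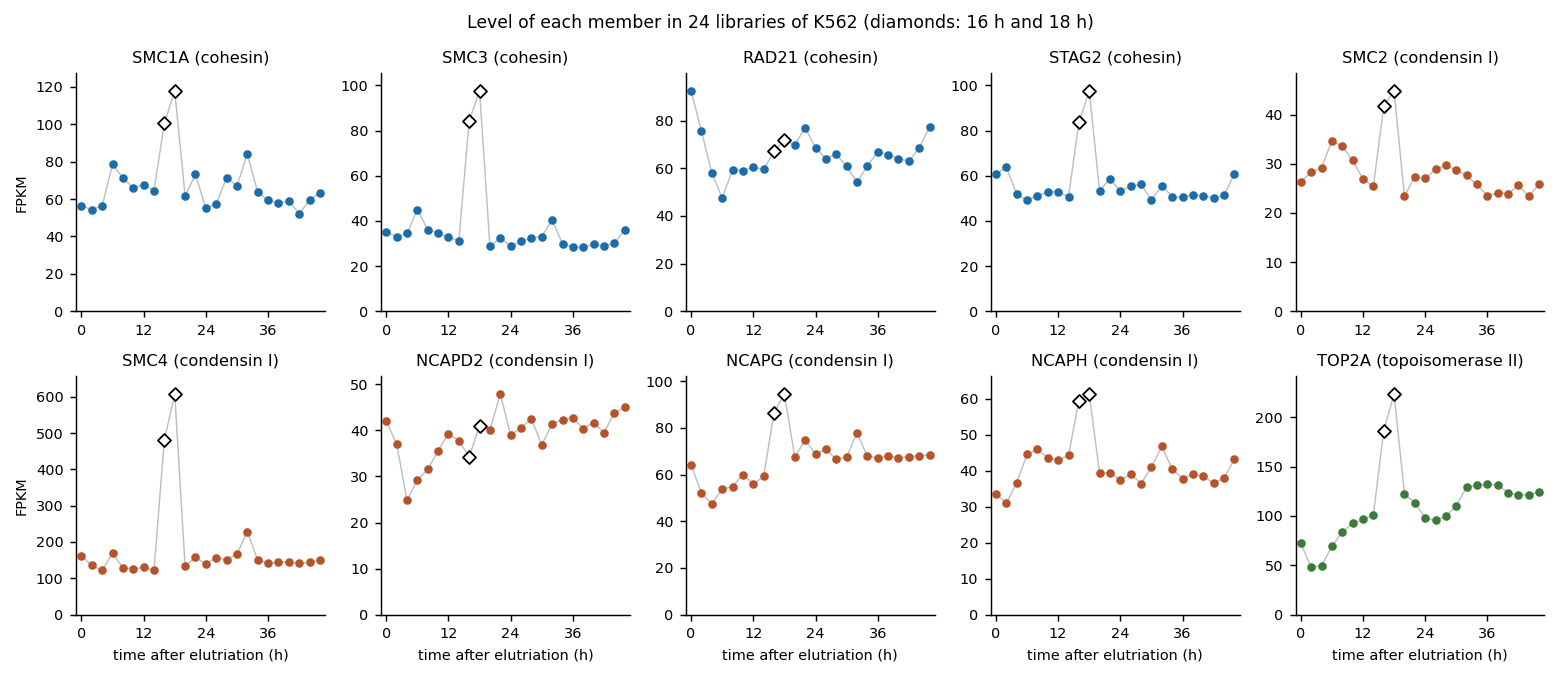
FPKM (y axis, from 0, scaled for each gene) of the 10 members against time after elutriation (x axis, h), 1 point for each of 24 libraries joined by a grey line, with diamonds for 16 h and 18 h. TOP2A climbed from 47.8 FPKM at 2 h to 122 FPKM at 20 h, and the diamonds lay above all other libraries in 8 of the 10 panels, the exceptions being RAD21 and NCAPD2. The share of all genes for which this held was not counted.

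To ask which members followed the cycle, each gene was given a cosine wave of 24 h, the period assumed by the study, on log2(FPKM + 1), with a separate level for the second day (24 h to 46 h), and the wave was tested with limma across 12253 genes. In all, 3 members, 1 of each complex, passed an adjusted p of 0.05 (Benjamini–Hochberg), TOP2A, RAD21 and SMC2. This was 3 of 10, beside 24.0% of all genes tested, so the share of members was near the background. The median amplitude was 0.13 for the members and 0.10 for all genes tested. A rank test of order in time (JTK, permutation over 100000 orderings of the time points) called 2 members, SMC2 (adjusted p = 0.00406) and RAD21 (adjusted p = 0.0172), beside 16.2% of all genes. Neighbouring time points may share errors, so p-values from both tests can be too small.

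TOP2A had the largest fitted amplitude of the 10 members in this model. It was lowest at 2 h and 4 h, at 47.8 and 49.3 FPKM, passed 92.6 FPKM at 10 h and stood at 122 FPKM at 20 h. After 113 FPKM at 22 h it fell to 95.4 FPKM at 26 h and came back to 129 FPKM at 32 h and 132 FPKM at 36 h. The course thus had a low point near the start of each day and higher levels in its later hours. From 32 h to 46 h it stayed between 121 and 132 FPKM. No such plateau could be seen on the first day, whose last hours were 20 h and 22 h with 16 h and 18 h left out. The fitted amplitude was 0.33 ± 0.07 (SE, 22 libraries), a peak-to-trough ratio of 1.59, with the peak at 15.5 ± 0.8 h (limma, adjusted p = 0.0107). By rank it missed the threshold (JTK permutation, adjusted p = 0.0640). The call rested on the model and on the early hours. With a straight line over time in place of the second-day term its amplitude was 0.19, below the 0.20 of RAD21, and did not pass (limma, adjusted p = 0.111). Without 0 h to 6 h its amplitude was 0.17, below the 0.18 of SMC2, and neither test called it (limma, adjusted p = 0.0749, JTK permutation, adjusted p = 0.434). At a period of 20 h the waves of TOP2A (adjusted p = 0.156) and RAD21 (adjusted p = 0.119) did not pass (limma), and at 28 h none of the 3 members did. CCNB1, the mitotic cyclin B1, had an amplitude of 0.40 ± 0.12 with its peak at 17.6 ± 1.0 h (limma, adjusted p = 0.0403). The S-phase reference MCM5, a subunit of the replicative helicase, had its peak at 3.70 ± 0.40 h (amplitude 0.31 ± 0.04, limma, adjusted p = 0.000542), and CCNE2, the G1/S cyclin E2, at 2.03 ± 0.71 h (amplitude 0.38 ± 0.07, limma, adjusted p = 0.00426). CCNA2, cyclin A2, peaked at 17.4 ± 1.4 h with an amplitude of 0.12 ± 0.05 that did not pass (limma, adjusted p = 0.145).

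Of the cohesin subunits only RAD21 passed the wave test. RAD21, the cleavable kleisin, was highest at 0 h with 92.4 FPKM, fell to 47.5 FPKM at 6 h, returned to 77.0 FPKM at 22 h, dipped again to 54.1 FPKM at 32 h and ended at 77.3 FPKM at 46 h. Its amplitude was 0.19 ± 0.04 with the peak at 21.3 ± 0.9 h (limma, adjusted p = 0.0131), and it was called by both tests. The low points of both days fell at 6 h and 32 h, hours at which SMC1A, SMC3 and SMC4 stood above their neighbours. SMC3, whose acetylation locks the ring, had an amplitude of 0.14 ± 0.04 with the peak at 5.50 ± 1.06 h, just outside both thresholds (limma, adjusted p = 0.0514, JTK permutation, adjusted p = 0.0552). SMC1A had an amplitude of 0.12 ± 0.05 (limma, adjusted p = 0.128), and STAG2 had 0.09 ± 0.03 (limma, adjusted p = 0.0718). STAG2 was the flattest member, with a highest level 1.30 times its lowest.

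Within condensin I the wave was carried by SMC2. It rose from 26.3 FPKM at 0 h to 34.7 FPKM at 6 h and 33.6 FPKM at 8 h, and declined to 23.5 FPKM at 20 h. On the second day it stood at 29.7 FPKM at 28 h and at 23.5 FPKM at 36 h. The amplitude was 0.17 ± 0.03 with the peak at 5.47 ± 0.63 h (limma, adjusted p = 0.00391), so SMC2 peaked in the early hours, beside MCM5 and not beside TOP2A. SMC4 had an amplitude of 0.10 ± 0.06 (limma, adjusted p = 0.306). NCAPD2 had 0.15 ± 0.05 with its fitted peak at 18.6 ± 1.2 h (limma, adjusted p = 0.0883), NCAPH 0.11 ± 0.04 at 10.8 ± 1.5 h (limma, adjusted p = 0.0960) and NCAPG 0.07 ± 0.04 at 19.2 ± 2.1 h (limma, adjusted p = 0.342). None of these 4 passed, and their peak hours are loosely placed.

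**Figure D2:**
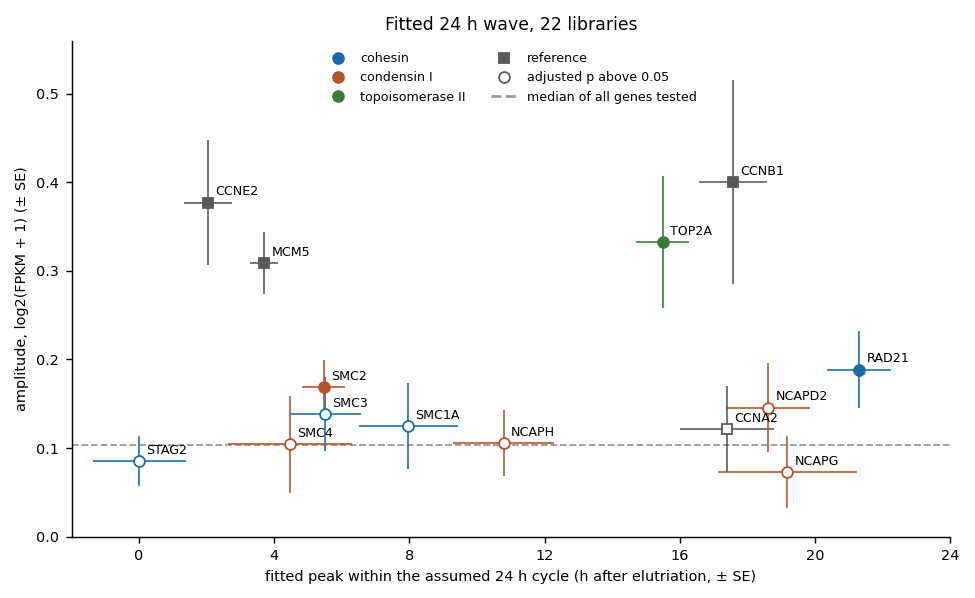
Amplitude of the fitted 24 h wave on log2(FPKM + 1) (y axis, ± SE) against its fitted peak (x axis, h after elutriation, ± SE) for the 10 members (circles, by complex) and 4 cell cycle references (squares), over 22 libraries, with filled symbols for an adjusted p of 0.05 or below. TOP2A (0.33) lies near CCNB1 (0.40) late in the cycle, SMC2 lies at 5.47 h near MCM5, and 7 of the 10 members are open circles.

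With 16 h and 18 h included the calls changed. The wave test then called 2 members, RAD21 (limma, adjusted p = 0.0157) and TOP2A (amplitude 0.48 ± 0.10, limma, adjusted p = 0.00750), beside 15.8% of all genes, while SMC2 had an amplitude of 0.04 (limma, adjusted p = 0.832). The rank test also called RAD21 (adjusted p = 0.00953) and TOP2A (adjusted p = 0.0264) with all 24 libraries (JTK permutation), beside 11.9% of all genes, and not SMC2 (adjusted p = 0.119). RAD21 was the only member called by both tests with and without these libraries. The peak of TOP2A fitted without them, 15.5 h, lies beside them, and at both TOP2A was above its highest other value of 132 FPKM. The paper describes STRIPEs as over-representing genes whose peaks or troughs coincide with them. The part of this in the calls of TOP2A was not tested. In the cleaned table that the authors deposited, JTK permutation called TOP2A (adjusted p = 0.0115) and RAD21 (adjusted p = 0.0144), beside 1425 of all 12285 genes.

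The level of the second day was above that of the first for TOP2A and NCAPG. TOP2A had a median of 88.0 FPKM in the 10 first-day libraries, from 47.8 to 122, and of 122 FPKM in the 12 second-day libraries, from 95.4 to 132. The ranges overlapped, and 6 of the 12 second-day libraries were above the first-day maximum. These medians, ranges and counts cover unlike hours, since the first day lacks 16 h and 18 h and the second keeps 40 h and 42 h. At matched hours TOP2A was higher on the second day in 9 of 10. The fitted difference, second day minus first, was 0.47 ± 0.10 (log2, SE, 22 libraries), a ratio of 1.38 (limma, adjusted p = 0.00168). NCAPG, a HEAT-repeat subunit that contacts DNA, had a median of 57.6 FPKM on the first day, from 47.5 to 74.7, and of 67.9 FPKM on the second, from 66.5 to 77.9. It was higher at 9 of 10 matched hours, and the fitted difference was 0.22 ± 0.06, a ratio of 1.16 (limma, adjusted p = 0.00669). NCAPG varied little on the second day, on which its highest value was 1.17 times its lowest, against 1.57 times on the first. The other HEAT-repeat subunit, NCAPD2, was higher at 8 of 10 matched hours, with a difference of 0.17 ± 0.07 that did not pass (limma, adjusted p = 0.0748). SMC4 was higher at 7 of 10, with 0.18 ± 0.07 (limma, adjusted p = 0.0782). These calls were 2 of 10 members on the second-day-higher side, beside 17.6% of all genes, and 0 of 10 on the lower side, beside 11.7%.

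All 4 cohesin subunits and SMC2 had fitted second-day differences below 0, from -0.10 for SMC3 to -0.02 for RAD21, and none passed. Under median centring SMC2 was called lower, at -0.12 (limma, adjusted p = 0.0323), and with all 24 libraries SMC3 was at -0.36, SMC2 at -0.22, SMC1A at -0.18 and STAG2 at -0.16, none of them called. NCAPH was at -0.01 ± 0.06. Over all 24 libraries the day difference of TOP2A was 0.31 (limma, adjusted p = 0.108) and that of NCAPG 0.13 (limma, adjusted p = 0.254). No member was then called (limma), beside 12.8% of all genes higher and 8.58% lower, where both added libraries belong to the first day. Without 0 h to 6 h TOP2A kept its call at 0.26 (limma, adjusted p = 0.0147) and NCAPG was at 0.14 (limma, adjusted p = 0.0612). Markers of other cell types moved with the day as well. LYZ was 0.84 ± 0.09 higher on the second day (log2, limma, adjusted p = 1.87e-06), COL1A2 was 0.39 ± 0.07 higher (limma, adjusted p = 0.000252), and 3 of the 9 erythroid markers were lower and none higher. The summed erythroid level was 3609 to 4932 FPKM on the first day and 3120 to 4117 FPKM on the second. The part of these shifts in the day differences of the members was not tested.

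The shape of the wave was compared between the days with an interaction term. TOP2A had an amplitude of 0.60 ± 0.10 on the first day and of 0.20 ± 0.08 on the second. Its highest level was 2.56 times its lowest on the first day and 1.38 times on the second. NCAPD2 had 0.32 ± 0.07 and 0.03 ± 0.05, and NCAPG had 0.22 ± 0.05 and 0.03 ± 0.04. RAD21 had 0.27 ± 0.06 and 0.12 ± 0.06. The first-day wave was fitted without 16 h and 18 h. The fitted amplitude was larger on the second day for SMC1A (0.09 and 0.17) and SMC4 (0.12 and 0.16). It was smaller for the other 8 of the 10 members, a count that was not made for all genes. None of these differences passed (limma, TOP2A adjusted p = 0.0715, NCAPG 0.0700, NCAPD2 0.106, SMC2 0.146), beside 4.15% of all genes, and 4 of the 10 members had an unadjusted p of 0.05 or below, as had 2910 of all 12253 genes. With all 24 libraries limma called 2 members, NCAPG (adjusted p = 0.0278) and TOP2A (adjusted p = 0.0235), beside 5.10% of all genes. Both added libraries belong to the first day, and in both NCAPG and TOP2A stood above all their other libraries.

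**Figure D3:**
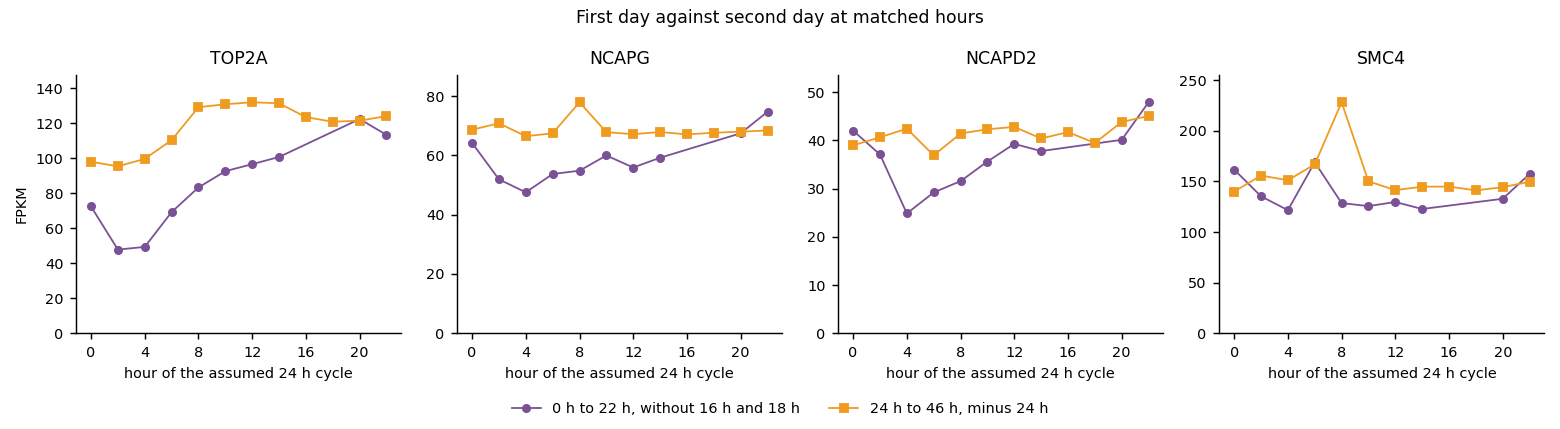
FPKM (y axis, from 0) of TOP2A, NCAPG, NCAPD2 and SMC4 against the hour of the assumed 24 h cycle (x axis), with circles for the 10 first-day libraries (16 h and 18 h left out) and squares for the 12 second-day libraries, 1 library a point. The second-day points of TOP2A and NCAPG lie above those of the first day at 9 of 10 matched hours, the exceptions being 20 h for TOP2A and 22 h for NCAPG.

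Subunits of the same complex were about as alike in time course as subunits of different complexes. Pearson's r of log2(FPKM + 1) over the 22 libraries had a median of 0.13 for the 16 pairs within a complex (-0.62 to 0.82) and of 0.15 for the 29 pairs between complexes (-0.64 to 0.82). These are descriptions over points that share their libraries and normalization. The 22 libraries include 6 h and 32 h, at which SMC1A, SMC3 and SMC4 stood above their neighbours in time and RAD21 below. The values of r without 6 h and 32 h were not computed, so the part of these libraries in them was not tested. The closest pairs were NCAPG with TOP2A (r = 0.82) and NCAPD2 with NCAPG (r = 0.82), then SMC3 with SMC2 (r = 0.74) and SMC1A with NCAPH (r = 0.73). Within cohesin, SMC1A and SMC3 ran together (r = 0.68), as did RAD21 and STAG2 (r = 0.70), but RAD21 ran against SMC1A (r = -0.49) and SMC3 (r = -0.37). The partners SMC2 and SMC4 had r = 0.09, and SMC2 against NCAPD2 had r = -0.62. When 16 h and 18 h were included, the medians were 0.57 within and 0.56 between complexes, and SMC2 with SMC4 went to 0.76.

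Among 7147 other genes, the 5 whose time course was most like that of TOP2A over the 22 libraries were MYEOV (r = 0.96), CENPA (r = 0.95), GALNT5 (r = 0.94), TRG-AS1 (r = 0.94) and NEK2 (r = 0.94). CENPA is the centromeric histone H3 variant and NEK2 a mitotic kinase. TOP2A had r = 0.80 with CCNB1, 0.78 with CCNA2, -0.61 with CCNE2 and -0.81 with MCM5. For SMC4 the nearest were PKM (r = 0.93), TRIP10, PDHA1, TRIP12 and CDK11B (r = 0.90), and its r with CCNB1 was 0.12. For SMC3 the nearest were KAT7 (r = 0.94), SF3B2, RPL28, CHMP2A and ZFPL1 (r = 0.86), and its r was -0.68 with CCNB1 and 0.62 with MCM5. By likeness to TOP2A, CDK1 ranked 171, CCNB1 187 and CCNA2 236 of the 7147 genes. SMC4 had r = 0.28 with CCNA2 and was nearer 0 with each of CCNB1, MCM5 and CCNE2. These likenesses also include 6 h and 32 h, where SMC4 and SMC3 stood above their neighbours in time, and were not computed without them.

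The other genes of the pathway were read from lists. Each count below stands beside the shares of all genes given above, 24.0% for the wave, 17.6% higher and 11.7% lower on the second day, and 4.15% for a wave that differed between the days. Of the 15 regulators of cohesin loading, release and cohesion, all in the table, 3 passed the wave test (limma), 0 were higher and 2 lower on the second day, and 2 had a different wave between the days. CTCF, the insulator protein at which cohesin loops stop, had an amplitude of 0.27 ± 0.04 with the peak at 7.43 ± 0.55 h (limma, adjusted p = 0.00154) and was lower on the second day (-0.39 ± 0.06, limma, adjusted p = 3.22e-05). STAG1, the paralogue of STAG2, had 0.26 ± 0.05 with the peak at 8.53 ± 0.71 h (adjusted p = 0.00375) and was also lower on the second day (-0.59 ± 0.07, adjusted p = 3.39e-06). PDS5B, which binds cohesin and takes part in its release and in cohesion, had 0.18 ± 0.05 at 6.30 ± 0.995 h (limma, adjusted p = 0.0352), but its wave did not pass with all 24 libraries (adjusted p = 0.769), whereas those of CTCF and STAG1 did. With all 24 libraries 4 of the 15 passed, MAU2 and DDX11 being the others. PTTG1, the separase inhibitor securin, did not pass the wave test (adjusted p = 0.0676), but its wave differed between the days (adjusted p = 0.00343).

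Of the 3 subunits particular to condensin II, which acts in the nucleus before condensin I gains access, 2 passed the wave test and 2 were higher on the second day (limma). NCAPH2 peaked at 4.89 ± 0.80 h (amplitude 0.14 ± 0.03, adjusted p = 0.0133), and NCAPG2 at 19.8 ± 1.0 h (0.10 ± 0.03, adjusted p = 0.0246). With all 24 libraries only NCAPG2 passed, NCAPH2 being just outside (adjusted p = 0.0542). NCAPG2 was 0.18 ± 0.04 higher on the second day (adjusted p = 0.00131) and NCAPD3 0.13 ± 0.03 (adjusted p = 0.00366). NCAPG2 thus passed on the second day in the same direction as its condensin I counterpart NCAPG. Of 8 genes of the SMC5/6 complex, which acts in DNA repair and replication, 0 passed the wave test (limma), 3 were lower on the second day (NSMCE1, NSMCE3 and SLF2), and 1, NSMCE1, had a different wave between the days. Of 5 other topoisomerases, only TOP1MT, the mitochondrial enzyme, passed the wave test (0.14 ± 0.04 at 9.73 ± 1.17 h, limma, adjusted p = 0.0367, and 0.126 with all 24 libraries), and only TOP2B was higher on the second day (0.16 ± 0.05, limma, adjusted p = 0.0254).

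Of 9 mitotic chromosome partners, 2 passed the wave test (limma), CCNB1 and AURKB, the Aurora B kinase (0.26 ± 0.07 with the peak at 14.1 ± 1.1 h, adjusted p = 0.0365). With all 24 libraries these and CDK1 passed. Of the 9, 3 were higher on the second day, AURKB (0.33 ± 0.11, limma, adjusted p = 0.0219), CDK1 (0.26 ± 0.09, adjusted p = 0.0317) and MKI67, the Ki-67 surface protein of mitotic chromosomes (0.20 ± 0.05, adjusted p = 0.00887). The wave differed between the days for 3 of them, CCNB1, PLK1 and KIF4A, the chromokinesin that works with condensin. The median second-day difference of this list was 0.21, against 0.01 for all genes tested and -0.01 for the 10 members. Of 4 meiotic cohesin subunits only REC8 was in the table, at 0.743 to 2.79 FPKM, and it passed no test. SMC1B, RAD21L1 and STAG3 were not in it, and genes entered the table with at least 1 FPKM in at least 12 time points.

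At 16 h and 18 h, the libraries named as STRIPEs, most members stood far above the hours around them. The deviation is how far both libraries lay, on average, from a line drawn through 14 h and 20 h on log2(FPKM + 1), and with 1 library at each hour it has no test. SMC4 went from 123 FPKM at 14 h to 481 and 608 FPKM at 16 h and 18 h and was back at 133 FPKM at 20 h. Its deviation was 2.07, or 4.21-fold, against -0.36 to 0.37 at 16 other pairs of consecutive libraries. SMC3 went from 31.2 FPKM to 84.4 and 97.6 FPKM and back to 28.8 FPKM, a deviation of 1.57, or 2.96-fold, against -0.23 to 0.23. These 2 of 10 members were at least 2-fold above their flanks, beside 8.95% of all genes, and 0 of 10 were at least 2-fold below, beside 7.11%. SMC4 lay at percentile 99.5 and SMC3 at percentile 98.1 of all genes.

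Another 4 members came next with nearly the same size, TOP2A at 0.87, SMC2 at 0.80, STAG2 at 0.79 and SMC1A at 0.78. TOP2A read 186 and 224 FPKM at the STRIPEs, above its highest other value of 132. NCAPH was at 0.52 and NCAPG at 0.51, whereas RAD21 (0.11) and NCAPD2 (-0.05) lay inside their own ranges over the 16 other pairs. RAD21 read 67.1 and 71.8 FPKM between 59.5 FPKM at 14 h and 69.8 FPKM at 20 h, and NCAPD2 read 34.2 and 41.0 FPKM between 37.8 and 40.1 FPKM. In the other 8 members both libraries were above every one of the 22 others, a count that was not made for all genes. The median deviation was 0.78 for the members and 0.14 for all genes, of which 58.1% were above 0. Under median centring and upper-quartile scaling the median of all genes was 0.02 and -0.06, SMC4 was at 1.96 and 1.84, SMC3 at 1.45 and 1.33, and RAD21 changed sign to -0.01 and -0.13.

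At the STRIPEs, some but not all subunit pairs stood in other proportions than elsewhere. SMC4 to SMC2 was 11.5 and 13.6 at 16 h and 18 h, against a highest value of 8.26 elsewhere. RAD21 to SMC3 was 0.795 and 0.736, against a lowest value of 1.06. SMC1A to SMC3 was 1.19 and 1.21, against a lowest value of 1.61. NCAPD2 to NCAPH was 0.575 and 0.669, against a median of 1.04 and a lowest value of 0.655 elsewhere. NCAPG to NCAPH, at 1.45 and 1.54, lay inside its range over the other libraries, 1.19 to 1.92.

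GC content moved with these deviations. Over all genes the median deviation fell across 5 groups of equal size by transcript GC content, from 0.54 in the lowest (26.3% to 40.6% GC) over 0.39, 0.18 and -0.16 to -0.53 in the highest (57.7% to 86.4% GC). Of the 10 members, 7 had a GC content of 36.6% to 40.7%, with SMC4 at 37.3% and SMC3 at 38.9%, and NCAPD2 had the highest GC content of the 10 at 52.5%. Pearson's r of deviation and GC content was -0.56 over the 10 members and -0.51 over all genes, a description across genes that share the same libraries. With the GC trend of all genes removed, SMC4 was at 1.67 and SMC3 at 1.11. These adjusted values keep the median of all genes at 0.14, so they are neither distances from the trend nor folds over the flanks. SMC3 passed the 2-fold line by less than this median. On this scale TOP2A was at 0.47, STAG2 at 0.36, SMC2 at 0.38, SMC1A at 0.69 and NCAPG at 0.08. RAD21 and NCAPD2 changed sign, to -0.20 and 0.13. NCAPD2 lay just below the median of all genes, and NCAPG and RAD21 lay further below it. RAD21, at 40.7% GC, had the smallest deviation of the 7 low-GC members as deposited (0.11) and with the GC trend removed.

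**Figure D4:**
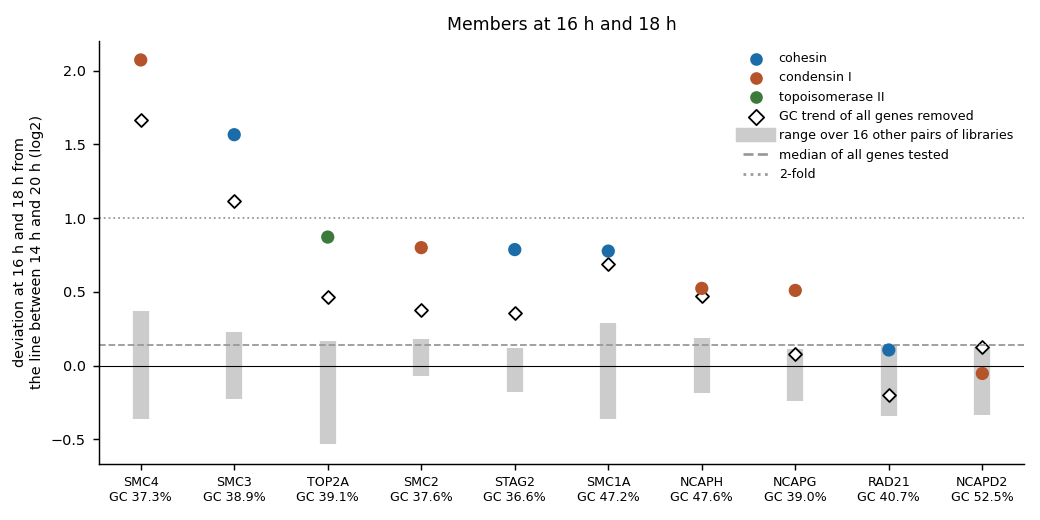
Deviation of each member at 16 h and 18 h from a line through 14 h and 20 h (y axis, log2), ordered by size, with coloured circles for the values as deposited, diamonds after removal of the GC trend of all genes, and grey bars for the range over 16 other pairs of libraries. The diamonds keep the median of all genes at 0.14, and that of SMC3 passes the 2-fold line by less than this. SMC4 (2.07) and SMC3 (1.57) lie above the 2-fold line with and without the GC trend, and the circles of RAD21 and NCAPD2 lie inside their grey bars.

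Single libraries outside the STRIPEs were compared with the mean of their neighbours at 18 time points. At 32 h, the milder STRIPE, 9 of the 10 members were above their neighbours, by a median of 0.17 against 0.03 for all genes, RAD21 (-0.17) being the exception. SMC4 was at 0.53 there, SMC1A and SMC3 both at 0.36, NCAPG at 0.20 and NCAPH at 0.19. For 5 members this was the largest deviation of the 18, a count that was not made for all genes. At 6 h, 8 of 10 were above, with SMC4 at 0.43, SMC3 at 0.34, SMC1A at 0.30 and RAD21 at -0.30. The order of the members at 6 h and 32 h was like that at the STRIPEs, with r = 0.77 and r = 0.80 over the 10 members (0.49 and 0.60 over all genes), as a description across genes. At 22 h all 10 were above their neighbours (median 0.14, all genes 0.04), led by SMC1A (0.32) and NCAPD2 (0.27), and at 4 h and 24 h 0 of 10 were. Adjacent hours are not independent here, since 6 h is a neighbour of 4 h and 22 h a neighbour of 24 h. A high library therefore lowers the value of the hours beside it. The share of all genes above their neighbours was 54.8% at 32 h, 59.9% in the library of 6 h and 58.0% in that of 22 h, and lower in those of 4 h (44.4%) and 24 h (40.1%). NCAPD2 had its largest deviation at 4 h (-0.39) and TOP2A at 2 h (-0.32).

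The calls were also read without these libraries. Without 6 h and 32 h the wave test called RAD21, SMC2 and TOP2A again and added STAG2 (limma, adjusted p = 0.0459), beside 2583 of all 12253 genes. The day test then called TOP2A and NCAPG and added SMC4 (0.14, limma, adjusted p = 0.0364), beside 3697 genes called higher or lower. Without 22 h, 28 h and 30 h SMC4 was also called higher on the second day (0.23, limma, adjusted p = 0.0492), beside 3429 genes called higher or lower. With each of the 22 libraries left out in turn, RAD21, SMC2 and TOP2A passed the wave test (limma), and TOP2A and NCAPG passed the day test, in all 22 fits.

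**Figure D5:**
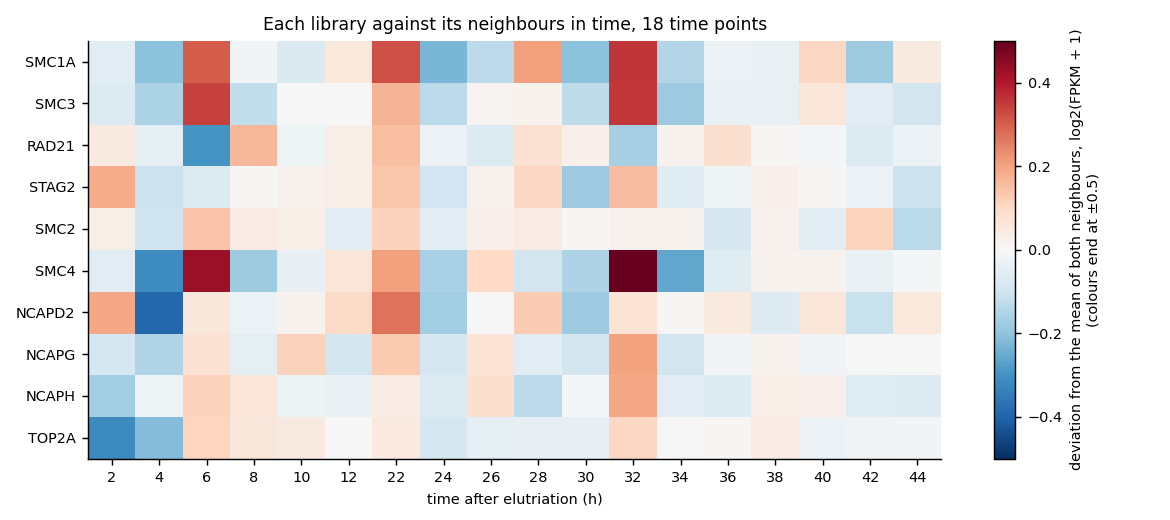
Distance of each of 18 libraries from the mean of both neighbours in time on log2(FPKM + 1) (colour, red above and blue below, ending at ±0.5) for the 10 members (rows) by time after elutriation (columns, h). The columns of 6 h and 32 h are red for SMC4, SMC3 and SMC1A and blue for RAD21, and all 10 rows are red at 22 h.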

How the data were processed

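Total RNA from 24 K562 libraries, 1 per time point, was measured. The FPKM values were made by the authors, who aligned reads with STAR to GRCh37 and quantified and normalized them with Cufflinks and Cuffnorm per the labels, with versions and annotation not given in the sources used here. The second deposited table holds a score, which the authors made from the FPKM by Z-scoring each gene and quantile normalization, and it was used for 1 alternative only. Columns were assigned to time points through the sample labels, and 0 columns were left unused. Read depth is unknown, so no counting error can be given.

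Genes averaging 1 FPKM or more (12253) were tested on log2(FPKM + 1), a scale that understates changes of low genes. limma 3.58.1 in R 4.3.3 fitted a second-day term and a cosine and sine of 24 h, with moderated tests and Benjamini–Hochberg adjustment over all genes tested. JTK took the highest Kendall S among 12 phases of a cosine, and had its permutation p from 100000 orderings, adjusted over 12285 genes, with Python 3.11.15, numpy 2.4.6, scipy 1.17.1 and pandas 2.3.3. Scripts were tested on simulated data. Symbols came from a table of gene names, promoters from RefSeq and transcript GC content from GENCODE release 29. Genes named are the 10 members, list genes that passed a test, 4 cell cycle references and the 5 genes nearest in time course to TOP2A, SMC4 and SMC3, with other list genes named after their values were seen. The members and lists were chosen with earlier results of these data known.

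Alternatives were all 24 libraries, PCHIP interpolation of 16 h and 18 h, the deposited score, periods of 20 h and 28 h, a straight line in place of the second-day term or removed, median centring, upper-quartile scaling, removal of the GC trend in 50 bins, a pseudocount of 0.1, no filter, a minimum average of 10 FPKM, a threshold of 1.5-fold, and libraries left out.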

Additional observations from a re-analysis of the deposited data

How the results depend on the processing

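No paired analysis was possible because each time point has 1 library and the labels give no replicate numbers that groups share. Matched hours of the days are set side by side in the results. With all 24 libraries, 1933 genes passed the wave test, 0 members the day test and 2 members the test of the wave between days, and the day difference of SMC4 reversed to -0.17. At a period of 20 h, 795 genes passed the wave test and 128 genes with 1 member passed JTK. At 28 h these were 949 genes with 0 members, and 290 genes with 0 members. A straight line gave 1736 genes for the wave, and 1292 genes with 1 member for JTK. Upper-quartile scaling gave 3048 genes with 5 members for the wave, and 1760 genes with 4 members for JTK. GC removal gave 2538 genes with 5 members for the wave. A mean of at least 10 FPKM, with fewer genes tested, gave 2127 genes for the day. Without 6 h and 32 h, 1062 genes passed JTK and 1225 differed in wave between days. Without 22 h, 28 h and 30 h, 205 differed in wave, and the day difference of NCAPH reversed to 0.012. Without 0 h to 6 h, an alternative chosen after seeing the data, 762 genes passed JTK, 1 member the day test, and 224 genes with 1 member differed in wave. The cause of these changes was not tested, and some of the settings also had fewer genes or libraries.

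For the deviation at 16 h and 18 h, upper-quartile scaling gave 579 genes at least 2-fold above. The number below was 1308 with a pseudocount of 0.1, 549 at a mean of at least 10 FPKM and 346 after GC removal. At 1.5-fold, 2933 genes with 6 members were above and 2060 below.

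With 1 library left out in turn, JTK called 969 (without 6 h) to 1953 genes with 2 to 3 members, the wave test 2273 to 3037 genes with 3 to 5 members, and the day test 2991 to 3922 genes with 2 to 4 members. The wave differed between days for 243 (without 44 h) to 875 genes (without 6 h) and 0 to 1 members. The day difference ran from -0.051 to 0.025 for RAD21 and from -0.043 to 0.0021 for NCAPH. Unknown depth and 1 library per time point limit all values.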
